A study of Homo sapiens with 6 samples.

Results

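The aminoacyl-tRNA synthetases are the enzymes that join each amino acid to its transfer RNA. The genes described here were picked by symbol and comprise 38 of the 24960 genes in the expression table. They are 19 genes for cytosolic enzymes, 3 for the scaffold proteins of the multi-synthetase complex and 16 for mitochondrial enzymes, whose symbols end in 2. Total RNA of K562 cells, an established human chronic myeloid leukemia (CML) line, was sequenced in 6 libraries. In the control group, 3 libraries came from cells labelled only as control. In the hyperoside group, 3 libraries came from K562 cells treated with hyperoside, a galactoside of the plant flavonol quercetin. All 6 libraries share the same cell line and leukemic origin, the labels give neither dose nor time nor vehicle, and nothing says whether replicates came from separate cultures, so p-values measure the spread between these libraries only. The question put to these genes was whether hyperoside altered their transcript levels, and whether cytosolic and mitochondrial enzymes were altered alike.

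Cytosolic synthetases charge the transfer RNAs that serve translation of nuclear genes, and several of them are held in a complex by AIMP1, AIMP2 and EEF1E1. A separate nuclear-encoded set is imported into mitochondria and charges transfer RNAs for the few respiratory chain subunits that the mitochondrial genome encodes. GARS1 and KARS1 each supply both compartments from a single gene, and EPRS1 holds the glutamate and proline enzymes in a single polypeptide. When uncharged transfer RNA accumulates, the kinase GCN2 (EIF2AK4) phosphorylates the initiation factor eIF2 and translation of the transcription factor ATF4 rises, and many cytosolic synthetase genes are known ATF4 targets.

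The libraries held 35613283 to 36754725 gene counts each. Replicates of a group differed by more than counting error, with a chi-square statistic per degree of freedom of 6.46 to 24.4. Of the 24960 genes, 15095 passed the filter on low counts and were tested, with 3508 lower and 3333 higher in the hyperoside group at an adjusted p under 0.05. The median log2 fold change over all tested genes was 0.00. All 8 erythroid and leukemia markers used to check the cell line had counts in every library, with summed normalized CPM (counts scaled to a common library total) of 2561 to 3138 in control and 2389 to 2864 in hyperoside libraries. Of 12 markers of other cell types, 9 had a count in every library, and the summed CPM of the list was 665 to 776 in control and 738 to 761 in hyperoside libraries. Most of that sum came from KRT8 and EPCAM, whereas the B cell marker MS4A1 and the monocyte marker CD14 were at or near 0. Of the 9 that were tested, 4 rose and 1 fell. The largest change of these was in PECAM1, an adhesion molecule of endothelial and blood cells, which rose by a log2 fold change of 1.52. In bulk libraries, fewer cells of a kind and less RNA per cell cannot be told apart.

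Transcripts of most cytosolic synthetases were lower in hyperoside-treated cells, and those of the mitochondrial synthetases showed no common direction. All 38 genes passed the filter on low counts. At an edgeR adjusted p under 0.05, 21 fell, 4 rose and 13 were not called. Over all tested genes, 23.2% fell and 22.1% rose. Among the 19 cytosolic enzymes, 15 fell and 0 rose, with a median log2 fold change of -0.52. Among the 16 mitochondrial enzymes, 4 fell and 3 rose, which is 25.0% and 18.8% and close to the shares over all genes, with a median of 0.10. Of the 3 scaffold genes, EEF1E1 and AIMP1 fell and AIMP2 rose. A fold change above 2, which the study required of its differentially expressed genes (DEGs), was reached by 1 gene, WARS1, which fell, and by 0 genes that rose. Over all tested genes, 3.76% fell and 6.43% rose by that standard.

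**Figure D1:**
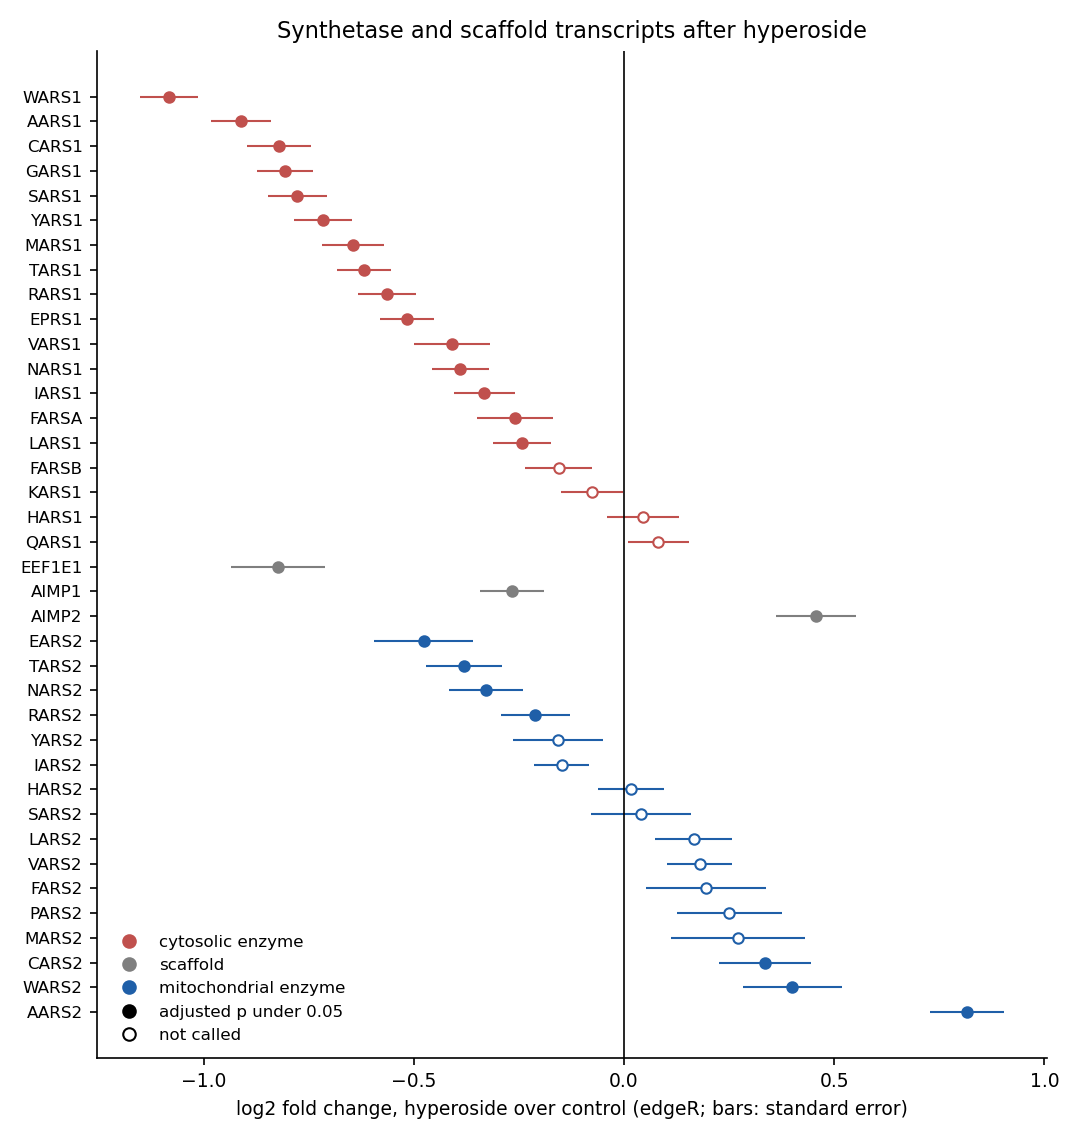
Log2 fold change of the 38 genes, hyperoside over control, on the horizontal axis, with each gene on its own line, grouped by compartment and ordered by value. Points are edgeR estimates from 3 libraries per group, bars are the standard error, filled points passed an adjusted p under 0.05 and open points did not. The cytosolic enzymes run from -1.08 for WARS1 to 0.08 for QARS1, and the mitochondrial enzymes from -0.48 for EARS2 to 0.82 for AARS2.

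WARS1, which charges tryptophan, had the largest decline of the 38. Its gene lies on chromosome 14 from 100333790 to 100376327 on the minus strand (GRCh38.p14). The normalized CPM of WARS1 was 487, 459.9 and 494 in the control libraries and 233, 216 and 232 in the hyperoside libraries. The lowest control value was therefore well above the highest hyperoside value. WARS1 fell by 1.08 on the log2 scale to 47.2% of control, with a standard error of 0.07 and an edgeR adjusted p = 1.75e-09. Of the exonic bases of WARS1, 10.6% overlap exons of WDR25 and an antisense gene.

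The enzymes for alanine, cysteine, glycine, serine and tyrosine followed. AARS1, on chromosome 16 from 70252298 to 70289506 on the minus strand, had a CPM of 996, 882 and 988 in control libraries against 511, 478 and 535 after hyperoside. CARS1 had 175, 150.3 and 160.1 CPM against 91.00, 88.7 and 94.9. GARS1, the gene for the glycine enzyme of both compartments, had 614, 572 and 589 CPM against 339.8, 324 and 351. In each of these 3 genes the libraries of the groups did not overlap. Their log2 fold changes were -0.91 (standard error 0.07) for AARS1, -0.82 (0.08) for CARS1 and -0.81 (0.07) for GARS1, with edgeR adjusted p of 2.20e-08, 1.52e-07 and 3.92e-08. SARS1 showed 470.2, 415 and 451 CPM in control and 257, 254 and 268 in hyperoside libraries. YARS1 showed 528, 474 and 501 CPM and 293, 307 and 314 CPM. In both genes the groups were again separate, and the log2 fold changes were -0.78 for SARS1 (adjusted p = 1.03e-07) and -0.72 for YARS1 (adjusted p = 2.13e-07).

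Smaller declines were measured for the enzymes of methionine, threonine, arginine, glutamate with proline, valine, asparagine, isoleucine and leucine. TARS1 was the tightest of these, with 546, 530.4 and 544 CPM in control and 349.9, 353 and 353 in hyperoside libraries, and fell by 0.62 on the log2 scale. The log2 fold changes of the others were -0.64 for MARS1, -0.56 for RARS1, -0.52 for EPRS1, -0.41 for VARS1, -0.39 for NARS1, -0.33 for IARS1 and -0.24 for LARS1. The standard errors of these 8 genes lay between 0.06 and 0.09, and the largest adjusted p was 0.00759, for LARS1. In 14 of the 19 cytosolic enzymes every hyperoside library was below every control library, whereas 27.3% of all tested genes were separated in that direction. None of the 19 was separated upwards, against 27.1% of all tested genes. Of the exonic bases of MARS1, 13.3% overlap ARHGAP9, MIR6758 and DDIT3, and DDIT3 itself fell by 1.30 on the log2 scale. The part of that overlap in the MARS1 value was not tested.

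**Figure D2:**
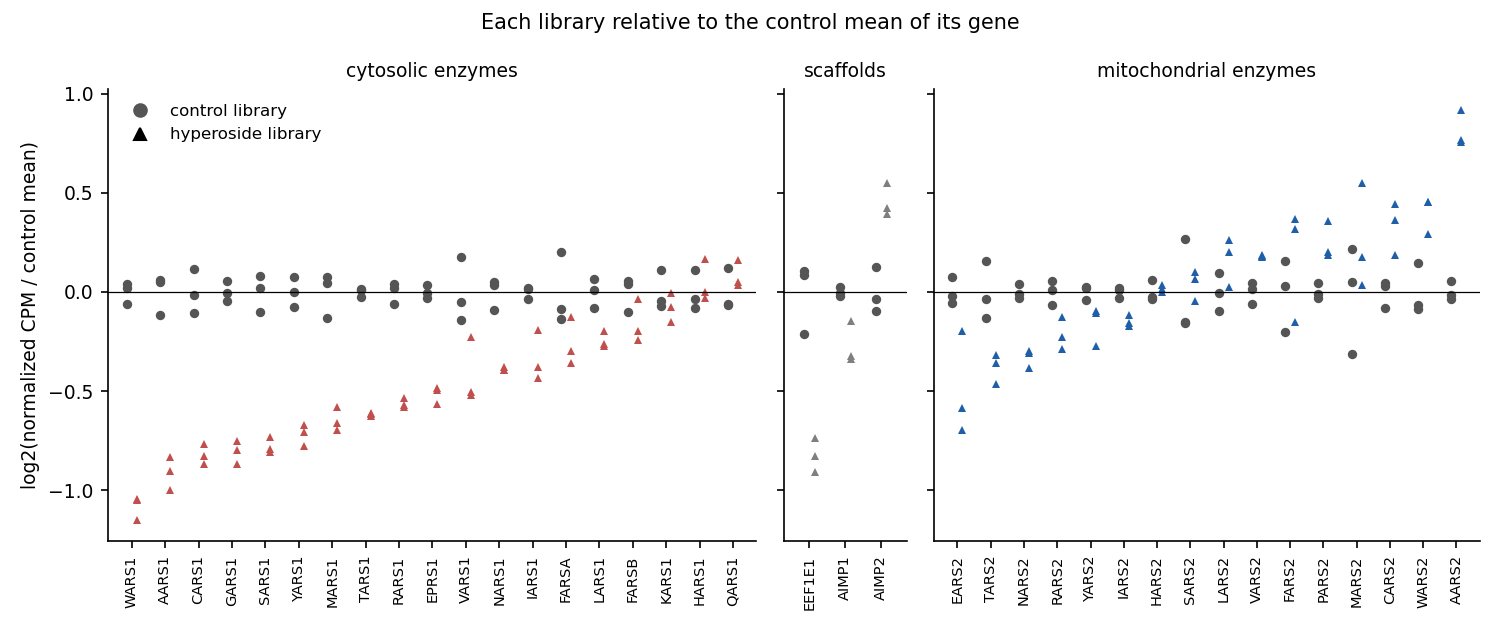
Normalized CPM of each library divided by the control mean of the same gene, on a log2 scale on the vertical axis, for the cytosolic enzymes, the scaffolds and the mitochondrial enzymes. Circles are the 3 control libraries and triangles the 3 hyperoside libraries. Hyperoside libraries lie below all control libraries in 14 of 19 cytosolic enzymes, and in 6 of 16 mitochondrial enzymes. The share over all tested genes was 27.3%.

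Phenylalanine, histidine, lysine and glutamine enzymes departed from this pattern. The cytosolic phenylalanine enzyme is built of the FARSA and FARSB subunits. FARSA had 159, 129.7 and 125 CPM in control and 107, 126 and 112 CPM in hyperoside libraries, and the groups overlapped because hyperoside replicate 2 exceeded control replicate 3. FARSA passed the test (log2 fold change -0.26, adjusted p = 0.0275), but without control replicate 1, hyperoside replicate 1 or hyperoside replicate 3 the adjusted p was 0.0936, 0.143 or 0.115. The 4 cytosolic enzymes that did not pass were FARSB, KARS1, HARS1 and QARS1. Their log2 fold changes, with 95% intervals, were -0.16 (-0.32 to 0.01), -0.08 (-0.23 to 0.08), 0.05 (-0.13 to 0.23) and 0.08 (-0.07 to 0.24). The intervals of KARS1, HARS1 and QARS1 leave out a decline as large as that of LARS1. HARS1 had 67.6, 59.03 and 61.04 CPM in control and 61.1, 70.1 and 62.5 CPM in hyperoside libraries.

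Declines were measured inside and outside the multi-synthetase complex. Of the 7 cytosolic enzymes of the complex, 5 fell (EPRS1, IARS1, LARS1, MARS1 and RARS1), with a median log2 fold change of -0.33 over the 7. Outside the complex, 10 of 12 fell, with a median of -0.67. By catalytic fold, 8 of 9 class I enzymes fell (median -0.56) and 6 of 9 class II enzymes fell (median -0.39), with EPRS1, which has a catalytic domain of each class, left out. These subgroups were not tested against each other.

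The 3 scaffold genes went different ways. EEF1E1, also known as AIMP3, had 22.6, 28.2 and 27.8 CPM in control and 15.7, 14.8 and 13.95 CPM in hyperoside libraries. It fell by 0.82 on the log2 scale (standard error 0.11, edgeR adjusted p = 1.20e-05). AIMP1, which also gives rise to the cytokine EMAPII, had 103, 106 and 104 CPM against 94.4, 82.6 and 83.5 CPM. The groups did not overlap, and AIMP1 fell by 0.27 (adjusted p = 0.00870, or 0.0609 without hyperoside replicate 3). AIMP2, the core of the complex, had 29.2, 25.1 and 26.1 CPM in control and 35.9, 39.3 and 35.2 CPM in hyperoside libraries. It rose to 137% of control, a log2 difference of 0.46 with a standard error of 0.10 (edgeR adjusted p = 0.000810). Of its exonic bases, 28.9% overlap EIF2AK1 on the opposite strand, 11.6% of those of AIMP1 overlap TBCK, and 18.7% of those of EEF1E1 overlap the read-through gene EEF1E1-BLOC1S5. Reads in the AIMP2 and AIMP1 stretches cannot be assigned with certainty, since the strand setting of the counting was not given. EEF1E1-BLOC1S5 lies on the same strand as EEF1E1, so no strand setting would separate the reads of that stretch.

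Among the mitochondrial enzymes, AARS2 had the largest change. The CPM of AARS2, on chromosome 6 from 44298731 to 44313347 on the minus strand, was 30.5, 29.03 and 28.6 in control and 49.9, 55.5 and 49.7 in hyperoside libraries. AARS2 charges alanine, as AARS1 does in the cytosol. It rose to 176% of control, a log2 difference of 0.82 with a standard error of 0.09 (edgeR adjusted p = 8.85e-07). WARS2 had 11.8, 13.8 and 11.95 CPM in control and 17.1, 15.3 and 17.1 CPM in hyperoside libraries and rose by a log2 fold change of 0.40 (adjusted p = 0.00988). CARS2 had 16.04, 16.2 and 14.9 CPM and 17.9, 21.4 and 20.2 CPM. All 3 genes were separated between groups. The log2 fold change of CARS2 was 0.34 (adjusted p = 0.0186), and its adjusted p was 0.0669, 0.0878 and 0.0539 without control replicate 3, hyperoside replicate 2 and hyperoside replicate 3. These 3 genes are the mitochondrial partners of AARS1, WARS1 and CARS1, the 3 cytosolic enzymes with the largest declines.

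The 4 mitochondrial enzymes that fell were those of glutamate, threonine, asparagine and arginine. EARS2 had 32.8, 30.7 and 30.03 CPM in control and 19.2, 27.2 and 20.8 CPM in hyperoside libraries. Hyperoside replicate 2 was nearest to the controls, but below all of them. EARS2 fell by 0.48 on the log2 scale (standard error 0.12, adjusted p = 0.00307). The log2 fold changes of TARS2, NARS2 and RARS2 were -0.38, -0.33 and -0.21, with adjusted p of 0.00231, 0.00544 and 0.0443. The RARS2 call was lost when any single library was left out, and the adjusted p then ranged from 0.0545 to 0.158.

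The other 9 mitochondrial enzymes were not called. Their log2 fold changes were -0.16 for YARS2, -0.15 for IARS2, 0.02 for HARS2, 0.04 for SARS2, 0.17 for LARS2, 0.18 for VARS2, 0.20 for FARS2, 0.25 for PARS2 and 0.27 for MARS2. IARS2, VARS2, YARS2 and PARS2 had groups that did not overlap, IARS2 and YARS2 downwards and the others upwards. Over the 16 enzymes, 6 were separated downwards and 5 upwards, beside 27.3% and 27.1% of all tested genes. MARS2 had the widest interval of the 9. At a control mean of 10.4 ± 1.88 CPM (SD, n = 3), its 95% interval was -0.06 to 0.60, whereas that of HARS2, at 56.9 ± 2.05 CPM, was -0.15 to 0.18. LARS2 had an adjusted p of 0.154, which was 0.0397 without control replicate 1. VARS2 had an adjusted p of 0.0667, which was 0.0216 without the same library, so that 5 mitochondrial enzymes were called higher when control replicate 1 was left out. Of the exonic bases, 57.0% of SARS2 overlap MRPS12 or a same-strand gene, and 22.0% of VARS2 overlap GTF2H4.

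The compartments were then compared within each amino acid. For 16 pairs of a cytosolic and a mitochondrial enzyme, the ratio of their FPKM values (fragments scaled to gene length and library total) was taken in each library. The log2 ratio was lower after hyperoside in 15 pairs, and in 13 of them every hyperoside library was below every control library. The AARS1 to AARS2 ratio was 50.4, 46.8 and 53.2 in control and 15.8, 13.2 and 16.6 in hyperoside libraries. The WARS1 to WARS2 ratio was 46.7, 37.6 and 46.7 in control and 15.4, 15.9 and 15.3 in hyperoside libraries. Alanine and tryptophan thus had the largest shifts, with log2 differences of -1.72 and -1.48. The ratio of CARS1 to CARS2 went from a geometric mean of 13.1 to 5.89, and the median log2 difference over the 16 pairs was -0.50.

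Each of the 13 separated pairs had an exact permutation p = 0.1 (two-sided, 3 against 3 libraries), which is the smallest p that the 20 regroupings allow, so no pair could pass 0.05. Adjusted over the 16 pairs by the Benjamini-Hochberg method, the exact permutation p was 0.123 for each of the 13. EPRS1 is in 2 of the pairs, with EARS2 and with PARS2, so the pairs are not independent. The 3 pairs whose groups overlapped were EPRS1/EARS2, NARS1/NARS2 and HARS1/HARS2, with log2 differences of -0.02, -0.06 and 0.03. In the first 2 of these both enzymes fell, as they also did for arginine and threonine. In 8 pairs only the cytosolic enzyme was called, and in 3 (alanine, cysteine and tryptophan) the cytosolic enzyme fell while the mitochondrial enzyme rose. The histidine pair was the only pair with no call in either compartment. HARS1 and HARS2 are neighbours on chromosome 5 on opposite strands, with 84 bases between their starts in RefSeq, and 15.8% of the exonic bases of HARS2 overlap HARS1 or ZMAT2 in GENCODE. No stretch of 50 bases was shared between the transcripts of any pair.

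**Figure D3:**
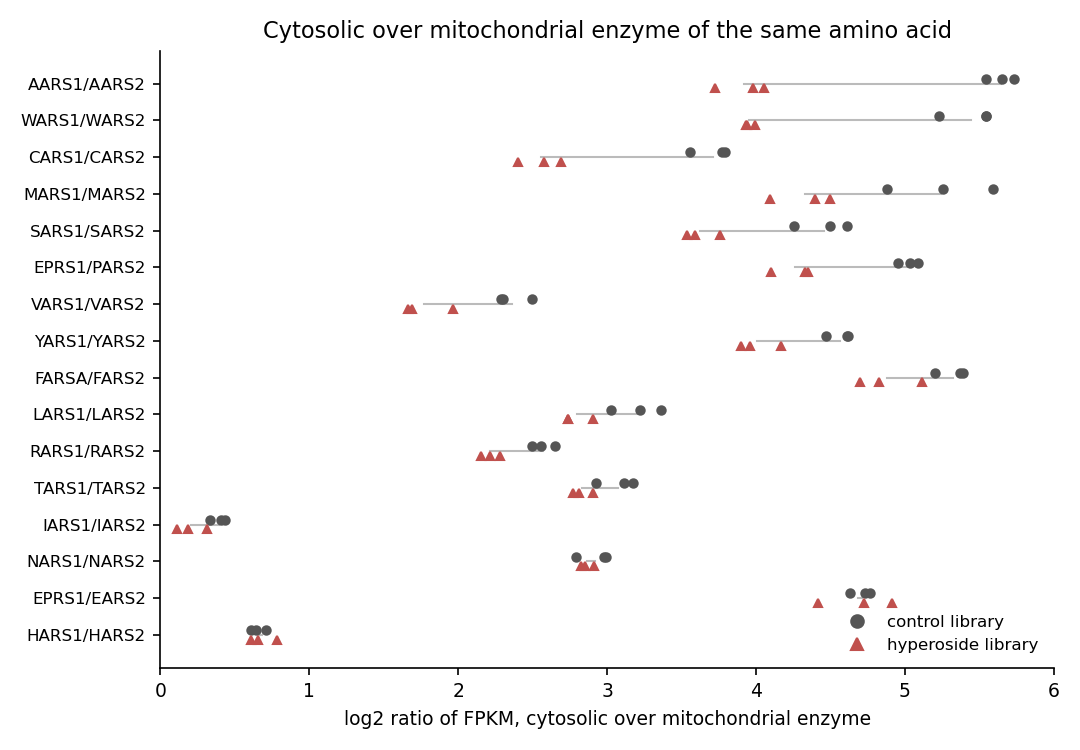
Log2 ratio of FPKM, cytosolic over mitochondrial enzyme of the same amino acid, on the horizontal axis for 16 pairs ordered by their difference. Circles are control libraries, triangles are hyperoside libraries, and grey lines join the group means. Triangles lie left of all circles in 13 pairs, from a log2 difference of -1.72 for alanine to -0.19 for isoleucine among them.

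On the length-scaled FPKM level, cytosolic enzymes were the more abundant in both groups. The FPKM of the 19 cytosolic genes summed to between 2242 and 2361 in control and between 1601 and 1633 in hyperoside libraries. The sum over the 16 mitochondrial genes was 207 to 214 in control and 206 to 216 in hyperoside libraries. The cytosolic sums of the groups were far apart and the mitochondrial sums overlapped. The cytosolic sum was 10.8 to 11.2 times the mitochondrial sum in control and 7.57 to 7.83 times in hyperoside libraries. Cytosolic enzymes took 0.686% to 0.719% of all counts in control and 0.489% to 0.5003% in hyperoside libraries.

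Within the cytosol, the most abundant enzyme transcripts of control cells were among those that fell most. AARS1 was the highest at 273 ± 17.9 FPKM (SD, n = 3), followed by SARS1 at 218 ± 11.96 and GARS1 at 216 ± 5.12. SARS1 and GARS1 were within the spread of each other, and both were below AARS1 in every control library. FARSB was the lowest at 11.3 ± 0.537. That rank depends on the gene length of 9202 bases behind its FPKM values, against 3369 exonic bases in GENCODE, and by normalized CPM HARS1 was lower (62.6 against 106 for FARSB in control). After hyperoside AARS1 was at 150.3 ± 8.11 FPKM and FARSB at 10.5 ± 0.823. WARS1 went from rank 6 of the 19 to rank 12, while QARS1 went from rank 11 to rank 7. With FARSB as the lowest, the highest FPKM was 21.5 to 26.9 times the lowest in control libraries and 12.4 to 16.1 times in hyperoside libraries. Across the 19 genes, log2 control FPKM and log2 fold change had a Pearson r of -0.58 and a Spearman rho of -0.63. The same values across the 16 mitochondrial genes were -0.51 and -0.61. These correlations are descriptions across genes, which are not independent replicates, and both measures use the same control libraries. IARS2 was the most abundant mitochondrial enzyme, at 72.02 ± 1.64 FPKM in control and 67.2 ± 1.27 in hyperoside libraries.

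**Figure D4:**
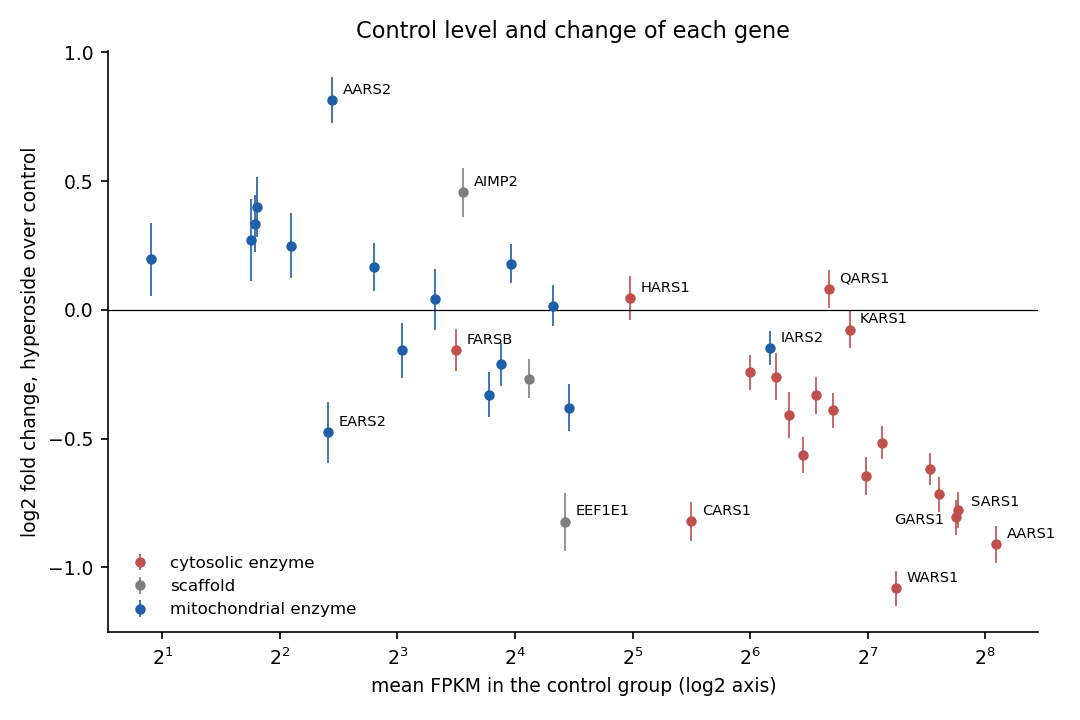
Mean control FPKM on a log2 horizontal axis against the log2 fold change on the vertical axis for the 38 genes, with bars for the standard error of the fold change. Cytosolic enzymes at high control levels, such as AARS1, SARS1 and GARS1, have fold changes from -0.91 to -0.78, while QARS1 and KARS1 lie near 0 at 102 and 115 FPKM.

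The promoters were searched for TGATGNAA, the core of the C/EBP-ATF response element through which ATF4 and C/EBP proteins are known to act, where N is any base. The search covered both strands of the stretch from 250 bases before to 50 bases after each start site in RefSeq (GRCh38.p14). A promoter was found for 33 of the 38 genes. The motif was in 7 of 16 cytosolic enzyme genes, in 0 of 3 scaffold genes and in 1 of 14 mitochondrial enzyme genes, YARS2. Among all promoters of the same length, 3.62% held it, and among tested genes with a promoter, 2.75% did. The matches are printed because 7 of the 8 among these genes lay in cytosolic enzyme genes, each with the motif in capitals and 10 bases on either side, written 5′ to 3′ on the strand that carries it. ASNS, CHAC1 and CEBPG, targets of ATF4 outside the family, follow as the 3 matches among 13 amino acid response genes with a promoter. The other 10 of these held no match.
AARS1: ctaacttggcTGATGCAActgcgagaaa
CARS1: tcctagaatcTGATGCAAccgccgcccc
GARS1: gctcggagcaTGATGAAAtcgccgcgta
IARS1: cgcacggaggTGATGCAAcgcgctgaaa
MARS1: aatccctcgcTGATGCAAccggaaccgg
NARS1: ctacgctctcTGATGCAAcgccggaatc
TARS1: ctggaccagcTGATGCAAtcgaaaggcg
YARS2: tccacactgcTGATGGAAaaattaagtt
ASNS: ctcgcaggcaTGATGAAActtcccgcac
CHAC1: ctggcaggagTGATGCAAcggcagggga
CEBPG: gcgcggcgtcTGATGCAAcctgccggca
The windows lie at chr16:70289676-70289703 (plus strand) for AARS1, chr11:3057408-3057435 (plus strand) for CARS1, chr7:30594835-30594862 (minus strand) for GARS1, chr9:92293693-92293720 (plus strand) for IARS1, chr12:57488054-57488081 (minus strand) for MARS1, chr18:57621805-57621832 (minus strand) for NARS1, chr5:33440957-33440984 (minus strand) for TARS1 and chr12:32756077-32756104 (minus strand) for YARS2. Those of the other genes lie at chr7:97872459-97872486 (minus strand) for ASNS, chr15:40953252-40953279 (minus strand) for CHAC1 and chr19:33374061-33374088 (plus strand) for CEBPG.

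Of the 7 cytosolic genes with the motif, 6 read TGATGCAA and GARS1 read TGATGAAA, as ASNS did. All 7 fell, and in each the groups were separate, with a median log2 fold change of -0.64. Of the 9 cytosolic genes with a promoter but no match, 5 fell, with a median of -0.26. WARS1, which fell most, and SARS1 were among those without a match. LARS1, VARS1 and YARS1, for which no promoter was found, are in neither group and also fell (-0.24, -0.41 and -0.72). Over all tested genes with a promoter, the 329 with the motif had a median log2 fold change of -0.02, 29.5% fell and 24.9% rose, against a median of 0.00, 23.3% and 22.0% in the 11623 without it. The motif was chosen with these fold changes known, and a match describes letters in a window, not binding.

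The amino acid response genes, a list of 14 around GCN2 and ATF4, included larger declines than any synthetase. Of the 14, 11 fell and 1 rose, with a median log2 fold change of -1.30. CHAC1, a glutathione-degrading enzyme, had 31.00, 25.6 and 29.6 CPM in control and 2.56, 2.64 and 2.88 CPM in hyperoside libraries. ASNS, asparagine synthetase, had 8.84, 9.66 and 8.70 CPM and 1.55, 1.61 and 1.61 CPM, with no overlap in either gene. The log2 fold changes were -3.41 and -2.51. The other DEGs of the list were PSAT1 and PHGDH of serine synthesis (-1.89 and -1.39), the stress regulators SESN2 (-1.44) and TRIB3 (-1.41), and the transcription factors CEBPG (-1.31) and DDIT3 (-1.30). DDIT3 was the most abundant of the list in control libraries, at 218 FPKM, and was at 91.8 FPKM in hyperoside libraries. There PPP1R15A, a regulatory subunit of the eIF2 phosphatase, was higher at 138 FPKM, with a log2 fold change of 0.09 (adjusted p = 0.363). ATF4 had 609, 502 and 527 CPM in control and 323, 315 and 355 CPM in hyperoside libraries and fell by 0.72 (edgeR adjusted p = 1.02e-06). EIF2AK4, the gene of GCN2, fell by 0.29 (adjusted p = 0.00306). The gene that rose was NUPR1, a stress-induced nuclear protein (0.69, adjusted p = 0.0273), whose groups overlapped. Its adjusted p was 0.0687 without hyperoside replicate 1 and 0.152 without hyperoside replicate 3.

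WARS1 is also a known interferon target, so 8 interferon-responsive genes were listed beside it. Of the 7 that were tested, 3 fell and 1 rose, with a median log2 fold change of -0.10. PSMB9, TAP1 and ISG15 fell, with log2 fold changes of -0.72, -0.46 and -0.49. GBP2 rose by 0.37 on the same scale, with an adjusted p of 0.0570 without control replicate 1, 0.0697 without hyperoside replicate 1 and 0.144 without hyperoside replicate 3. IDO1 was not tested because of low counts.

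Other genes of tRNA charging were listed as well. Of the 11 tested genes of that list, 3 rose and 3 fell, with a median log2 fold change of 0.06. GATB, a subunit of the amidotransferase that makes mitochondrial glutaminyl-tRNA, rose by a log2 fold change of 0.38 and was not called without control replicate 3 (adjusted p = 0.0885) or hyperoside replicate 2 (adjusted p = 0.0984). The count of higher calls in the list was 1 without hyperoside replicate 1. SEPSECS of the selenocysteine route, the mitochondrial formyltransferase MTFMT and the deacylase DTD1 fell, with log2 fold changes of -0.68, -0.44 and -0.32, and the adjusted p of MTFMT was 0.0842 without control replicate 2 and 0.0923 without hyperoside replicate 3. AARSD1 was not tested because of low counts.

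Genes that act before and after charging were counted in 3 lists. Of 7 cytosolic elongation genes, 2 fell and 0 rose, with a median log2 fold change of -0.11. EEF1A1, which delivers charged tRNA to the ribosome and was the most abundant at 4967 FPKM in control, had a log2 fold change of -0.07 (adjusted p = 0.358). Its paralog EEF1A2 fell by 0.89, and EIF5A fell by 0.25 with an adjusted p = 0.0498. Without control replicates 1 or 2 or hyperoside replicates 1 or 3, the adjusted p of EIF5A lay between 0.0555 and 0.234. Of 10 mitochondrial translation factors, 3 fell and 5 rose, with a median of 0.13. TUFM, the mitochondrial elongation factor Tu and the most abundant by FPKM, fell by 0.32 (adjusted p = 0.00390). The count of higher calls among these factors was 1 without hyperoside replicate 2, and 2 without control replicate 2 or control replicate 3. Of 10 genes of tRNA maturation and export, 5 fell and 2 rose (4 without control replicate 1), with a median of -0.28. XPOT, the tRNA exporter and the most abundant by FPKM in control libraries, fell by 0.33 (adjusted p = 0.000744). ELAC1, a tRNA 3′-end processing enzyme, was a DEG that rose by a log2 fold change of 1.14 from a low level of 2.11 ± 0.614 CPM (SD, n = 3). All 6 lists were drawn up with results of these data known and are given as counts beside the 23.2% and 22.1% of all tested genes.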

How the data were processed

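RNA-seq was analysed in K562 cells, 3 control and 3 hyperoside libraries grouped by their labels. Total RNA was extracted with TRIzol, and libraries were read on an Illumina instrument. The submitters' processing notes name fastp, HISAT2, HTSeq and the build hg38. Versions, annotation and strand setting are not given in the sources used here. Gene counts as deposited were not normalized by the authors, whereas the deposited FPKM values are scaled to gene length and library total.

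The 38 genes were selected by symbol. The members and gene lists were chosen with earlier results of these data known. Counts of all genes were tested with edgeR 4.0.16 in R 4.3.3 (filterByExpr with a minimum count of 10 and a minimum total of 15, TMM, quasi-likelihood test of treatment with no covariate). Benjamini-Hochberg adjustment ran over the 15095 tested genes. Intervals and standard errors come from the same fit, and the procedure was tested on simulated data. DEGs had to pass an adjusted p of 0.05 and a 2-fold difference. Normalized CPM uses TMM-scaled totals, so all changes are relative to the library. Pair ratios used FPKM without a pseudocount and an exact permutation test over libraries. Every one of the 38 is named. From the other lists, the DEGs, the most abundant gene, and ATF4, EIF2AK4, DDIT3, ASNS, CHAC1 and TRIB3 were named by rule, and the remaining genes after their values were seen. Some listed genes are not reported here by name. DESeq2 1.42.0, limma 3.58.1 on log2 FPKM with a pseudocount of 1 or 0.1, other scalings, no filter, a replicate block and leaving out each library served as alternatives. RefSeq (GRCh38.p14) gave positions and promoters, and GENCODE gave exon overlaps.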

Additional observations from a re-analysis of the deposited data

How the results depend on the processing

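Over 14 alternatives each, 28 of the 38 genes kept their direction and their side of the threshold throughout, and of the 25 called genes 21 kept their calls and 0 changed sign. The exceptions were FARSA, AIMP1, CARS2 and RARS2. RARS2 lost its call in 12 alternatives, and FARSA lost its call with upper-quartile factors, library totals and both limma fits (adjusted p 0.0583, 0.0647, 0.0905 and 0.0834). Signs turned in uncalled genes only, with log2 fold changes of -0.018 for HARS1 without hyperoside replicate 2, -0.0026 for HARS2 without control replicate 2, and -0.033 for SARS2 without control replicate 2 or 3, where leaving out other libraries gave up to 0.11, 0.050 and 0.20. VARS2, uncalled in the main fit, was called higher in 6 alternatives and not in the other 8. Its adjusted p was 0.0444 in DESeq2, 0.0253 with upper-quartile factors, 0.0183 with library totals, and 0.0114 and 0.0118 in the limma fits. PARS2 was called higher in both limma fits (adjusted p 0.0417 and 0.0386). With 3 libraries per group, differences of the size of VARS2 or LARS2 (0.18 and 0.17) were near the limit of the test, and pair ratios could not pass 0.05. Intervals measure the spread between these libraries, and whether that spread includes variation between cultures is not known.

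Leaving out each library gave 1 to 2 lower scaffold genes and 2 to 5 higher mitochondrial enzymes (5 with either limma fit, at a pseudocount of 1 or 0.1). Median log2 fold changes then ranged from -0.53 to -0.48 for cytosolic enzymes, from -0.33 to -0.23 for scaffolds and from 0.050 to 0.20 for mitochondrial enzymes. With library totals alone, the medians were -0.47 for cytosolic and 0.15 for mitochondrial enzymes. The limma fits gave -0.46 and -0.47 for cytosolic enzymes, -0.21 for scaffolds at a pseudocount of 1 and 0.16 for mitochondrial enzymes at a pseudocount of 0.1. The log2 ratio difference of EPRS1/EARS2 turned to 0.0030 without control replicate 2 and 0.11 without hyperoside replicate 2 (range -0.14 to 0.11), and that of HARS1/HARS2 to -0.023 without hyperoside replicate 2 (range -0.023 to 0.066). The cause was not tested.

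In the other lists, leaving out libraries gave 2 to 3 lower and 1 to 3 higher charging genes, 1 to 3 lower elongation genes, 1 to 5 higher mitochondrial factors, 2 to 4 higher tRNA maturation genes, and 0 to 1 higher genes in the amino acid response and in the interferon list. Lower charging genes numbered 1 in limma at a pseudocount of 1. Lower elongation genes numbered 1 with RLE, upper-quartile or total scaling and in both limma fits. Higher amino acid response genes numbered 0 in DESeq2 and both limma fits, and higher interferon genes 0 in both limma fits.

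Libraries with the same replicate number did not deviate together (correlations of -0.20, -0.04 and -0.02). With 3 libraries per group, these correlations cannot tell whether such libraries shared a culture, and the labels do not say. With the replicate number as a block, 3103 genes fell and 3026 rose over all genes, 1 elongation gene fell, 2 mitochondrial factors rose, and RARS2 had an adjusted p of 0.0864.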
